A study of Mus musculus with 9 samples.

Results

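The genes that encode the proteins of the cytosolic ribosome were described across RNA sequencing libraries of endothelial cells sorted from mouse lungs. A gene was taken as a member if its symbol was Rpl or Rps followed by a number, with an optional letter or copy digit, or was Rplp0, Rplp1, Rplp2 or Rpsa. Members also had to carry no pseudogene suffix and to reach a mean of 10 CPM (the count scaled to a common library total) over the 9 libraries. Of 56748 gene IDs in the deposited table, 52073 had a symbol, 89 matched the name rule and 79 of these reached 10 CPM. The 79 members comprised 32 genes of the small subunit and 47 of the large subunit, of which Rplp0, Rplp1 and Rplp2 form the P stalk. They lay on 19 chromosomes, and 4 of them were X-linked (Rps4x, Rpl10, Rpl36a and Rpl39).

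The study compared 3 genotypes with 3 libraries each: Notch1f/f, DNMAML and WT. By the usual reading of these names, Notch1f/f mice carry Notch1 alleles flanked by loxP sites, and DNMAML mice carry a truncated Mastermind-like protein whose dominant-negative action blocks transcription driven by Notch receptors. Neither the labels nor the files name the promoter or Cre that acted, or the cells it acted in. All mice were C57BL/6 and 6 weeks old, and the sorted cells were negative for DAPI and the leukocyte marker CD45 and positive for CD31. Libraries were made from total RNA after removal of ribosomal RNA, so members were not selected by their poly(A) tails. The labels do not say whether the 3 libraries of a genotype are separate mice. The Y-linked gene Ddx3y stood at 106.8 to 133 CPM in some libraries and at 0 to 0.225 CPM in the others, with both kinds in each genotype. The 3 libraries of a genotype thus did not all come from the same mouse. Each p-value below measures the spread between libraries, which includes this difference and may be technical in part.

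Libraries held 15522100 to 27842496 counts, of which 168476 to 408631 fell on the 79 members. The endothelial genes Cdh5 and Pecam1 had 5366 to 6656 and 3408 to 4353 CPM over the 9 libraries, and all 8 endothelial markers were detected in each. In Notch1f/f libraries Notch1 stood at 70.8, 29.5 and 176 CPM, against 679 to 872 CPM in DNMAML and 766 to 909 CPM in WT libraries. Notch1f/f replicate 1 stood apart from replicates 2 and 3 of its genotype in the level of the ribosomal protein genes, and the results below are therefore also given without it. That choice was made on the levels of these same genes. The p-values and calls without this library are thus descriptions and no support for a difference.

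The ribosome has a small subunit, which reads the messenger RNA, and a large subunit, which joins amino acids into protein. Both are assembled in the nucleolus from ribosomal RNA and ribosomal proteins, and cells usually keep the messenger RNAs of these proteins in close proportion to each other. In vertebrates most of these messenger RNAs begin with a run of pyrimidines, the TOP motif, through which the kinase complex mTORC1 and the RNA-binding protein Larp1 control their translation and stability.

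The start sites of 6 members are shown because they carry, or lack, a pyrimidine run near the start, and because the last 3 belong to copies of other members that departed from the class in the libraries. Each sequence runs 5′ to 3′ on the gene's strand, with 10 bases before the annotated start and 20 bases from it, and capitals mark runs of at least 6 bases that are all C or T.
Rpl15: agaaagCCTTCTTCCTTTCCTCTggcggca
Rpl35: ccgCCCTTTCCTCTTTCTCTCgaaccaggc
Rplp2: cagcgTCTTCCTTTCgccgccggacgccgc
Rpl22l1: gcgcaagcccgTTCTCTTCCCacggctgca
Rps27l: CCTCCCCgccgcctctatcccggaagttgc
Rpl7l1: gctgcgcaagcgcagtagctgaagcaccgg

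These windows were taken from RefSeq on GRCm38.p6. They lie at chr14:18270967-18270996 (Rpl15, minus strand), chr2:39005112-39005141 (Rpl35, minus strand), chr7:141447641-141447670 (Rplp2, plus strand), chr3:28805498-28805527 (Rpl22l1, plus strand), chr9:66946076-66946105 (the first of the Rps27l starts, plus strand) and chr17:46782637-46782666 (Rpl7l1, minus strand). In Rpl15, Rpl35 and Rplp2 the run spans or directly follows the start, in Rpl22l1 it begins just after it, in Rps27l it lies before it, and the Rpl7l1 window holds none. RefSeq promoters of 300 bases (250 before the start and 50 from it) were matched for 58 members with 69 starts. The other 21 members, among them Rpl3, Rpl30 and Rps4l, were not matched. A run of at least 6 C or T on the gene's strand within 25 bases of the start was found at 65.2% of the 69 member starts, against 43.9% of all 32851 starts. The letters CCGGAAG, the core bound by ETS factors, were found on either strand in 36.2% of member promoters, against 8.86% of all promoters. The letters AAGATGGC, the core of the YY1 motif, were found on either strand in 11.6%, against 2.75%. These matches are descriptions of the sequence and are no measure of binding.

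Among the members, mean levels over the 9 libraries ran from 10.1 CPM (Rpl22l1) to 476 CPM (Rpl4), with a median of 160.6 CPM. Rpl4, which lines the exit tunnel of the large subunit, averaged 545 ± 218 CPM in Notch1f/f, 444 ± 47.8 CPM in DNMAML and 439 ± 97.0 CPM in WT libraries (SD, n = 3 each). Per kilobase of exon, the highest levels in WT were those of Rps15 (506 CPM per kb), Rplp1 (466 CPM per kb), Rps3a1 (368 CPM per kb) and Rpl36 (307 CPM per kb). Rps15 and Rps3a1 are small-subunit proteins, and Rplp1 is an acidic protein of the stalk. The lowest per kilobase in WT were Rpl13a (4.78), Rpl22l1 (5.42), Rpl7l1 (16.0) and Rps27l (17.2 CPM per kb), 3 of them copies of other members. Exon length here is the union of all annotated isoforms, so genes with long rare isoforms have low values per kilobase.

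The ribosomal protein genes moved together between libraries, and the widest gap lay between libraries of the same genotype. Their summed level was 8259.5, 18097 and 21304 CPM in Notch1f/f replicates 1, 2 and 3, against 12216, 11627 and 14237 CPM in the DNMAML and 13972, 10798 and 15441 CPM in the WT replicates of the same numbers. The lowest and the highest of the 9 libraries were thus both Notch1f/f, 2.58-fold apart, and the 6 other libraries lay between them. As a share of all counts the class took 0.861%, 1.87% and 2.07% in Notch1f/f, 1.22%, 1.17% and 1.40% in DNMAML and 1.36%, 1.09% and 1.51% in WT libraries. The genotype means of the summed level were 15887 ± 6797 CPM in Notch1f/f, 12693 ± 1369 CPM in DNMAML and 13404 ± 2373 CPM in WT (SD, n = 3 each), with all 3 means within the Notch1f/f spread.

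**Figure D1:**
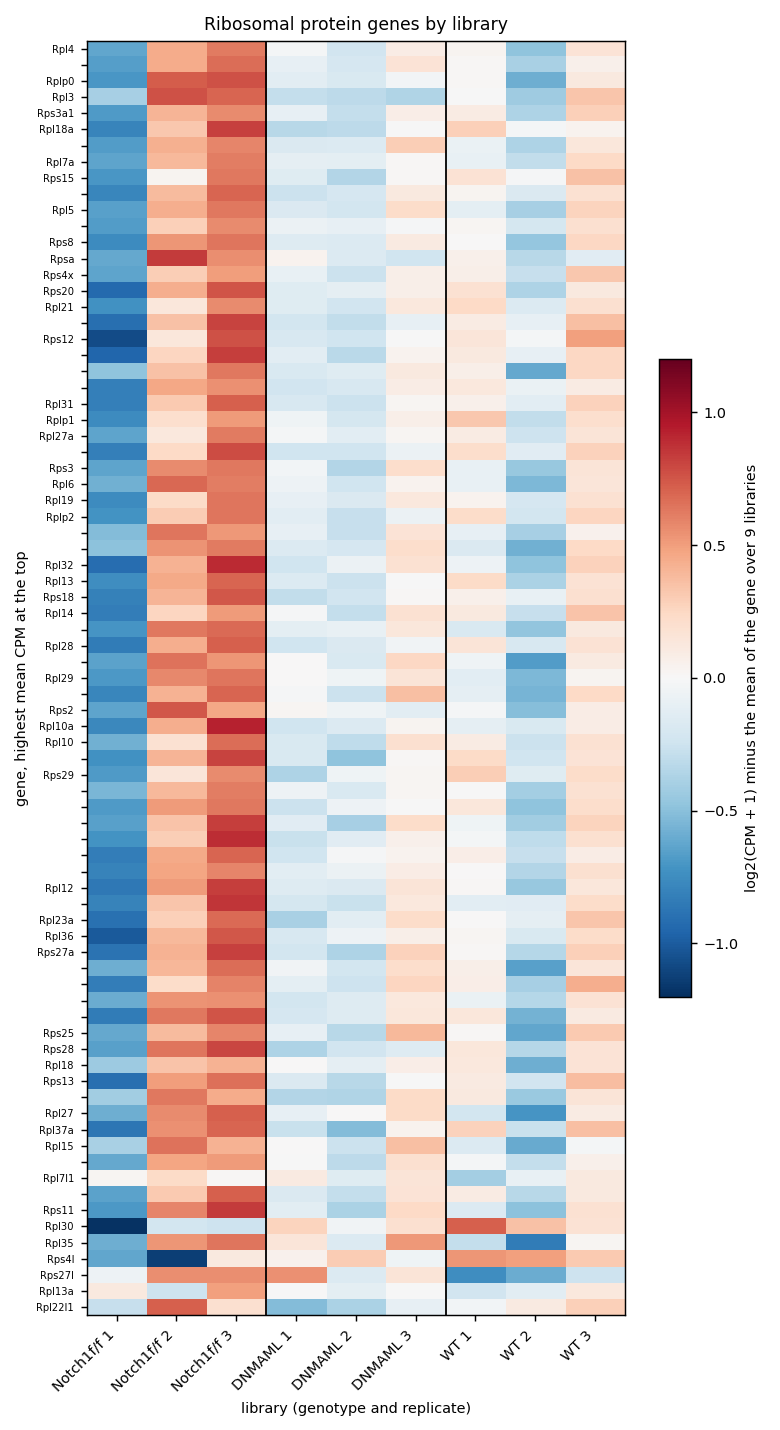
Level of each of the 79 ribosomal protein genes (one line each, highest mean CPM at the top, with a part of them labelled) in each of the 9 libraries (columns), as log2(CPM + 1) minus the gene's mean over the 9 libraries. Notch1f/f replicate 1 is the lowest library for 63 genes and Notch1f/f replicate 3 the highest for 67, while Rpl30, Rps4l, Rps27l, Rpl13a and Rpl7l1 near the foot follow other patterns.

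Gene by gene the picture was the same, as the heat map of all members shows. On the scale of log2(CPM + 1) minus the gene's own mean over the 9 libraries, the median member stood at -0.69, 0.42 and 0.64 in Notch1f/f replicates 1, 2 and 3. It stood at -0.15, -0.20 and 0.09 in the DNMAML replicates and at 0.03, -0.34 and 0.18 in the WT replicates. Notch1f/f replicate 1 was the lowest of the 9 libraries for 63 of 79 members, against 11.7% of all genes tested, and Notch1f/f replicate 3 was the highest for 67, against 13.0%. Notch1f/f replicate 1 lay below every DNMAML and WT library for 64 members (18.2% of all genes), replicates 2 and 3 both lay above every DNMAML and WT library for 60 (8.18% of all genes), and 49 members did both. Within the other genotypes a library was also low for most members. DNMAML replicate 2 was the lowest of its genotype for 52 members (36.5% of all genes) and WT replicate 2 for 73 (37.5% of all genes).

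The spread between libraries differed in size by genotype. The median SD of log2 levels over the members was 0.72 in Notch1f/f, 0.17 in DNMAML and 0.28 in WT libraries, against 0.34, 0.24 and 0.26 over all genes tested in the same order of genotypes. Members varied more than the usual gene in Notch1f/f and less than it in DNMAML; whether the spread itself differed between genotypes was not tested.

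The subunits kept their proportion throughout. The summed level of the 32 small-subunit genes divided by that of the 44 large-subunit genes outside the stalk was between 0.727 and 0.752 in all 9 libraries, while the sum over all members ranged 2.58-fold. The stalk genes took 5.52% to 6.34% of the sum. Over the 9 libraries a member had a median SD of 0.44 on the log2 scale, and 0.14 after the library's median member was subtracted. Over all genes tested the median SD was 0.36. The subtraction lowered the SD of 75 of the 79 members. The members with the largest remaining SD were Rps4l (0.70), Rpl30 (0.57), Rps27l (0.47), Rpl7l1 (0.40), Rpl13a (0.40) and Rpl22l1 (0.33), and 4 of these 6 are copies of other members.

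The stalk gene Rplp0, whose product anchors the stalk to the large subunit, shows the common pattern at high depth. Its level was 240, 644 and 663 CPM in Notch1f/f libraries, against 356, 343 and 381 CPM in DNMAML and 393, 258 and 423 CPM in WT libraries. One Notch1f/f library lay below all others and the other 2 lay above all others. Rplp1 and Rplp2, the acidic proteins that draw in elongation factors, did the same at their low end, with 128 and 115 CPM in Notch1f/f replicate 1, against 188 to 229 and 156 to 181 CPM in DNMAML and 176 to 272 and 162 to 226 CPM in WT libraries. Rpsa, a small-subunit protein also known as a laminin receptor precursor, had 168, 463 and 380 CPM in Notch1f/f, 266, 231 and 218 CPM in DNMAML and 269, 204 and 235 CPM in WT libraries. Rps12, a protein of the small-subunit head, had the widest range of these, with 108, 252 and 388 CPM in Notch1f/f, 200.4, 193 and 227 CPM in DNMAML and 252, 225 and 321 CPM in WT libraries. In all of these the Notch1f/f values enclosed those of the 2 other genotypes at least at the lower end.

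Set against WT, the question is which members differ in cells of Notch1f/f mice. The median member was higher by 0.26 on the log2 scale, against a median of 0.02 over all 19486 genes tested, and 72 of 79 members were above 0 (51.7% of all genes). No member passed an adjusted p of 0.05 in edgeR's quasi-likelihood test with Benjamini-Hochberg adjustment, where 0.836% of all genes did, and the smallest adjusted p of a member was 0.104. At an unadjusted p below 0.05 there were 3 members (Rps27l, Rpl30 and Rps4l), against 13.4% of all genes. DESeq2 called the same 3 members (5.48% of all genes were called) and limma-voom called 0 (0.251% of all genes). For 47 of the 79 members the difference was within 1 SE. The small subunit (median 0.28, 28 of 32 above 0), the large subunit outside the stalk (0.24, 42 of 44) and the stalk (0.08, 2 of 3) each had most members above 0. Without the filter on low counts edgeR called 6 members as higher (2% of all genes) and 2 as lower (2.26%).

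The members with the highest differences between Notch1f/f and WT were Rps27l (0.94, SE 0.25), Rpl35 (0.63, SE 0.34), Rpl27 (0.58, SE 0.32), Rpl15 (0.54, SE 0.27) and Rplp0 (0.53, SE 0.35). Rpl15 and Rpl27 are proteins of the large subunit, and their levels were 92.7 ± 31.8 and 99.5 ± 41.6 CPM in Notch1f/f, against 63.8 ± 13.0 and 66.3 ± 18.1 CPM in WT (SD, n = 3 each). The lowest were Rpl30 (-0.94, SE 0.25), Rps4l (-0.93, SE 0.27), Rps12 (-0.09, SE 0.38), Rps15 (-0.09, SE 0.27) and Rps29 (-0.04, SE 0.27). Below 0, then, Rpl30 and Rps4l stood alone, and the next 5 members lay between -0.09 and -0.01.

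These values depended on single libraries. Without Notch1f/f replicate 1 the median member was higher in Notch1f/f than in WT by 0.56, 77 of 79 were above 0 and 65 had an unadjusted p below 0.05, where 16.7% of all genes did. In that fit 11 members passed (1.81% of all genes passed as higher): Rpl6, Rpl10a, Rpl23, Rpl27, Rpl29, Rplp0, Rps2, Rps7, Rps27l, Rps28 and Rpsa, with differences of 0.71 to 1.12. The library left out there was the lowest for most members, so these p-values and calls are descriptions only. Without Notch1f/f replicate 2 the median was 0.15, without WT replicate 2 it was 0.12, and without Notch1f/f replicate 3 it was -0.01, with 39 of 79 members above 0. In the fit without Notch1f/f replicate 3, Rps4l alone passed, as lower (edgeR, adjusted p = 0.0193, 0.766% of all genes passed as lower). The median difference of the class between Notch1f/f and WT therefore ran from -0.01 to 0.56 over the 9 fits that each left out a library.

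**Figure D2:**
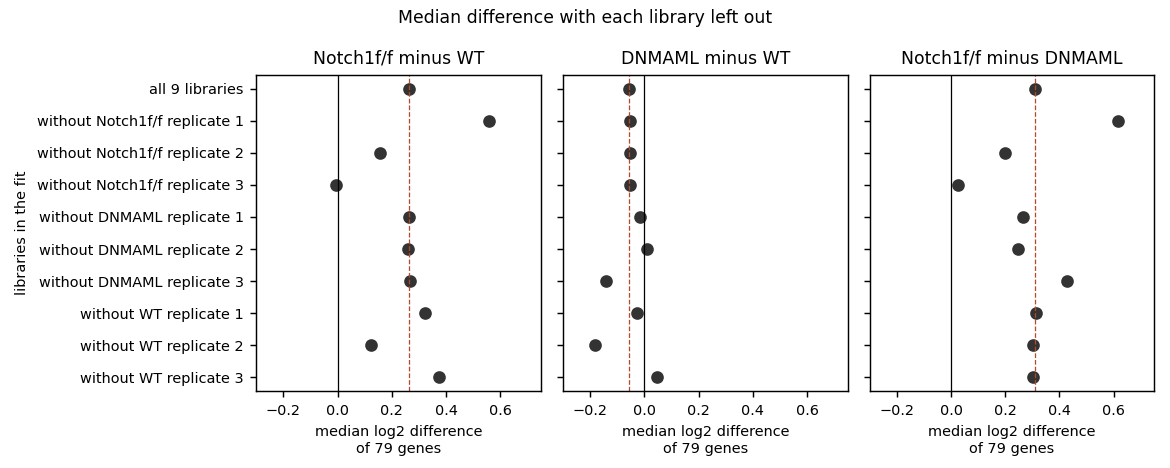
Median log2 difference over the 79 ribosomal protein genes (x axis) in each of the 3 comparisons (panels), with all 9 libraries and with each library left out in turn (lines down the page). The dashed line marks the value with all libraries. Against WT, the Notch1f/f median runs from -0.01 without Notch1f/f replicate 3 to 0.56 without Notch1f/f replicate 1.

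DNMAML against WT asks the same of the Notch-blocking construct. The median member was at -0.06, against 0.01 over all genes, and 30 of 79 members were above 0 (51.1% of all genes). No member passed in edgeR, where 0.00513% of all genes did, and the smallest adjusted p was 0.529. One member, Rps27l, had an unadjusted p below 0.05, against 5.97% of all genes, and DESeq2 (1.09% of all genes) and limma-voom (0%) both called 0. The difference was within 1 SE for 69 of 79 members. Apart from Rps27l (0.76, SE 0.25), the highest were Rpl35 (0.53, SE 0.34), Rpl15 (0.31, SE 0.27), Rpl27 (0.29, SE 0.32) and Rpl29 (0.23, SE 0.31). The lowest were Rpl22l1 (-0.50, SE 0.31), Rpl37a (-0.38, SE 0.38), Rps12 (-0.36, SE 0.38), Rps4l (-0.35, SE 0.27) and Rps15 (-0.33, SE 0.27). The median moved between -0.18 (without WT replicate 2) and 0.05 (without WT replicate 3), so its sign depended on which library was left out. With the replicate number as a block, in the 6 DNMAML and WT libraries alone, 0 members passed (1.71% of all genes) and 21 had an unadjusted p below 0.05 (13.2%).

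Between the mutant genotypes, Notch1f/f and DNMAML, the median member was higher in Notch1f/f by 0.31, against 0.00 over all genes, and 77 of 79 were above 0 (50.5% of all genes). No member passed in edgeR (0.0205% of all genes did), and DESeq2 (0.883%) and limma-voom (0.0154%) called 0. The unadjusted p was below 0.05 for Rpl3 and Rpl30, against 6.37% of all genes. Rpl3 (0.76, SE 0.28), Rpl22l1 (0.65, SE 0.31), Rps28 (0.65, SE 0.32), Rplp0 (0.52, SE 0.35) and Rpl37a (0.51, SE 0.38) were highest. Rpl30 (-0.65, SE 0.25) and Rps4l (-0.58, SE 0.27) were the only members below 0 in this comparison, followed by Rpl7l1 (0.05, SE 0.15), Rpl35 (0.10, SE 0.34) and Rpl14 (0.11, SE 0.31). Without Notch1f/f replicate 1 the median was 0.61 and 69 members had an unadjusted p below 0.05 (10.4% of all genes), with 0 passing after adjustment (0.0294% of all genes). Without Notch1f/f replicate 3 the median was 0.03. Without the filter on low counts edgeR called Rpl3 and Rps28 as higher (0.529% of all genes) and Rpl30 as lower (1.56%). The 3 comparisons share libraries in pairs, so the values of a member in them are not independent.

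**Figure D3:**
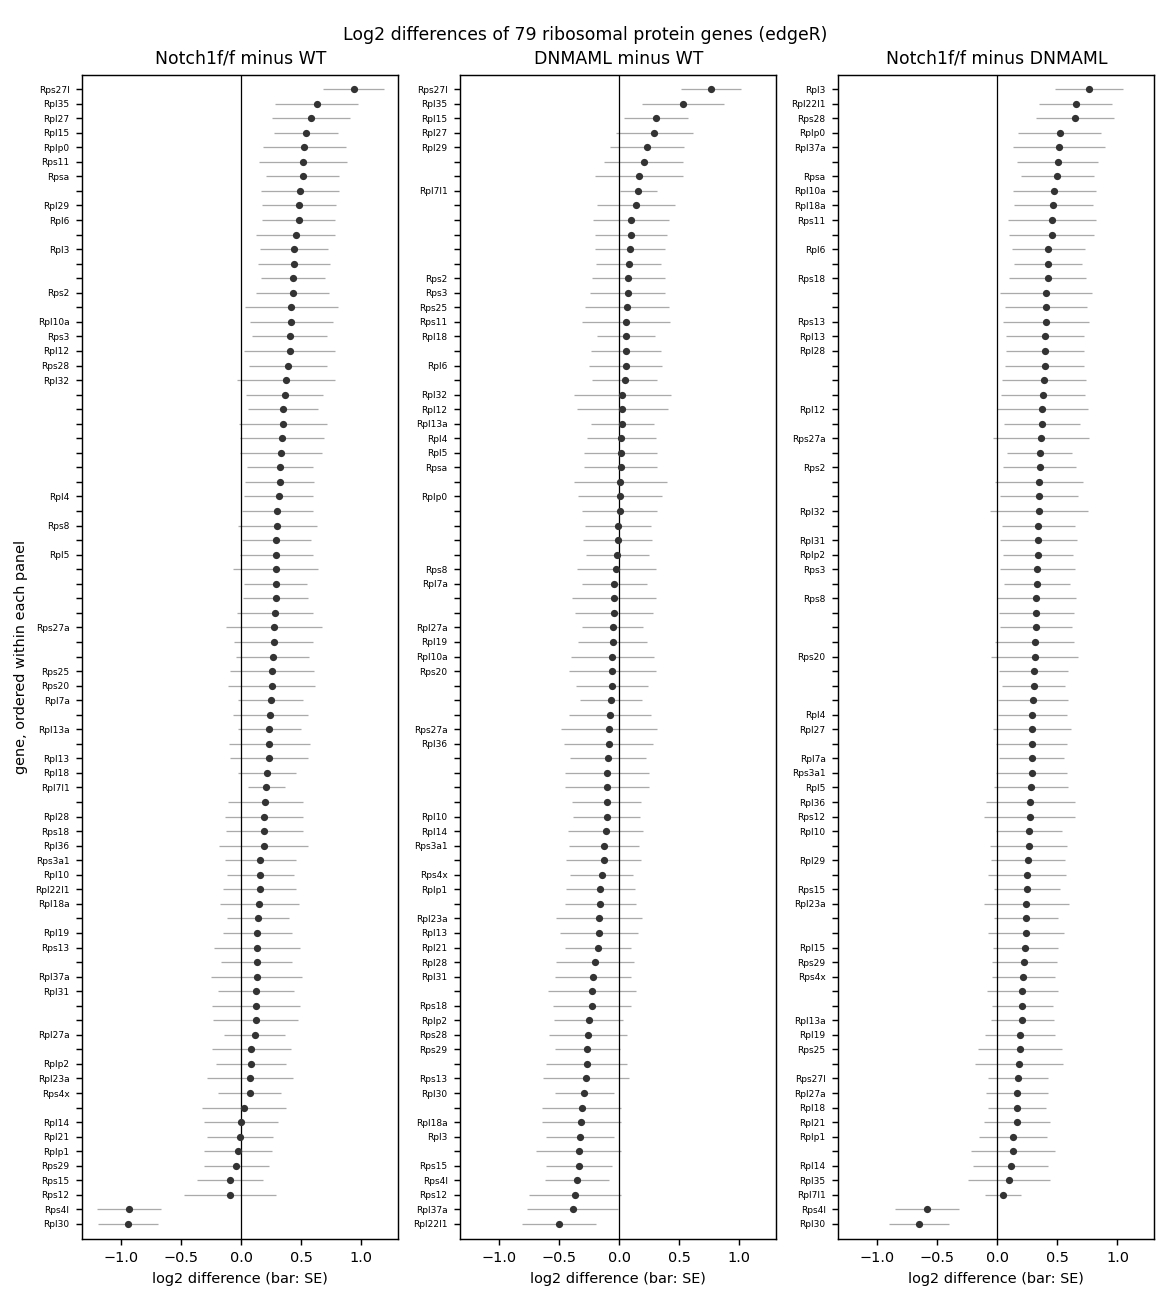
Log2 difference of each of the 79 ribosomal protein genes (x axis, edgeR, bars show SE) in the 3 comparisons (panels), ordered within each panel, with a part of the genes labelled. Most members of the Notch1f/f panels sit between 0 and 0.6, and Rpl30 and Rps4l lie apart on the low side near -0.9 against WT.

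Groups that did not overlap were few. In Notch1f/f against WT the libraries were separate for 1 member as higher (Rps27l; 8.5% of all genes) and 2 as lower (Rpl30 and Rps4l; 9.33%). In DNMAML against WT they were separate for Rps27l as higher (7.58% of all genes) and for Rpl22l1, Rpl41 and Rps4l as lower (6.84%). In Notch1f/f against DNMAML they were separate for 0 members as higher (4.4%) and for Rpl30 as lower (5.32%). The members' shares were below the background in each case.

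Rps27l, at chr9:66853368-66856798 (GRCm39), is a copy of Rps27 known as a target of p53. It had 19.6, 30.6 and 30.6 CPM in Notch1f/f, 30.4, 18.2 and 23.0 CPM in DNMAML and 11.9, 13.2 and 17.1 CPM in WT libraries. All 6 Notch1f/f and DNMAML libraries lay above all 3 WT libraries, and Notch1f/f replicate 1, low for the class, was still above WT. The adjusted p was 0.105 against WT in Notch1f/f and 0.529 in DNMAML (edgeR). Its relative Rps27 had 60.4, 126 and 111 CPM in Notch1f/f, 63.3, 62.8 and 95.2 CPM in DNMAML and 88.2, 59.2 and 90.3 CPM in WT libraries, and its groups overlapped.

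Rpl30, at chr15:34440651-34443786 (GRCm39), encodes a large-subunit protein whose yeast counterpart binds and represses its own transcript. It had 20.3, 40.5 and 39.9 CPM in Notch1f/f, 57.5, 46.0 and 54.4 CPM in DNMAML and 78.6, 60.7 and 53.6 CPM in WT libraries. All Notch1f/f libraries were below all others, including replicates 2 and 3, in which nearly all members were high. The adjusted p was 0.104 against WT and 0.680 against DNMAML (edgeR). Of its exon bases, 20.4% are shared with the opposite-strand transcript D730044K07Rik, which had at most 8 counts in any library.

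Rps4l, at chr6:148256098-148257431 (GRCm39), is an intronless autosomal copy of the X-linked Rps4x. It had 20.9, 14.5 and 35.7 CPM in Notch1f/f, 34.0, 40.9 and 31.6 CPM in DNMAML and 47.9, 46.7 and 41.0 CPM in WT libraries. WT libraries were above all others, and Notch1f/f replicate 3 overlapped DNMAML. The adjusted p against WT was 0.131 in Notch1f/f and 0.999 in DNMAML (edgeR). Rps4x itself had 168, 321 and 371 CPM in Notch1f/f, 245, 218 and 275 CPM in DNMAML and 275, 215 and 327 CPM in WT libraries.

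Rpl3, whose product lies at the peptidyl transferase centre, had 266, 598 and 569 CPM in Notch1f/f, 288, 282 and 273 CPM in DNMAML and 351, 262 and 442 CPM in WT libraries. The DNMAML libraries lay close together (SD 7.29 CPM), Notch1f/f replicate 1 was below all of them, and Notch1f/f replicates 2 and 3 were the highest of the 9. Rpl35, which sits at the tunnel exit, had 27.5, 60.7 and 65.8 CPM in Notch1f/f, 46.2, 37.1 and 60.4 CPM in DNMAML and 34.1, 23.0 and 42.6 CPM in WT libraries. Its groups overlapped, and 66.2% of its exon bases are shared with the opposite-strand gene Wdr38, where a read cannot be assigned without its strand.

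Rpl7l1, the copy of Rpl7 found in nucleolar precursors of the large subunit, differed little between libraries, with 61.5, 71.2 and 61.0 CPM in Notch1f/f, 65.4, 54.5 and 67.4 CPM in DNMAML and 45.2, 56.8 and 65.7 CPM in WT libraries. Its highest library was 1.57-fold above its lowest, against a median of 2.61-fold over members. Rpl22l1, the copy of Rpl22, had 7.88, 16.8 and 11.3 CPM in Notch1f/f, 6.50, 7.29 and 9.10 CPM in DNMAML and 9.57, 10.6 and 12.1 CPM in WT libraries, and DNMAML was below WT without overlap. Rpl13a had 11.6, 8.77 and 15.4 CPM in Notch1f/f, 10.6, 9.74 and 10.6 CPM in DNMAML and 8.94, 9.68 and 11.7 CPM in WT libraries, with no order between genotypes.

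**Figure D4:**
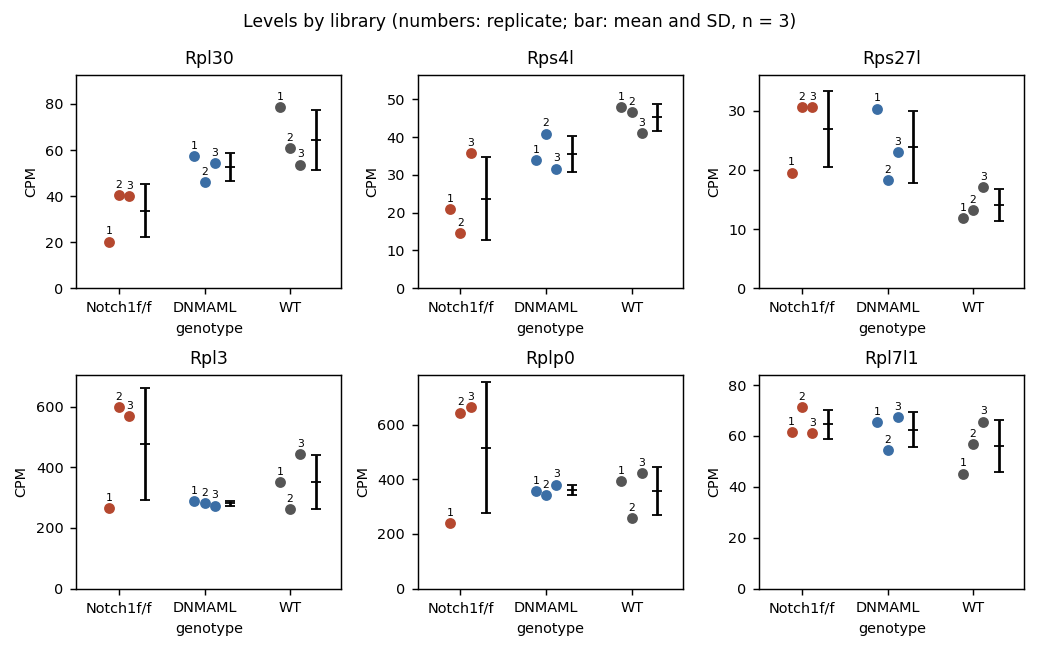
CPM (y axis, from 0) of 6 members in the Notch1f/f, DNMAML and WT libraries (points, numbered by replicate), with mean and SD (bars, n = 3). Rplp0 shows the pattern shared by most members, with Notch1f/f replicate 1 below and replicates 2 and 3 above all other libraries, Rpl30 is lowest in all 3 Notch1f/f libraries, and Rps27l is lowest in all 3 WT libraries.

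Other components of the translation machinery differed in how far they shared the pattern. Fau and Rack1, ribosomal genes that the name rule does not cover, followed it: Rack1 had 166, 352 and 418 CPM in Notch1f/f, 225, 208 and 240 CPM in DNMAML and 274, 228 and 300.2 CPM in WT libraries. For 14 translation factors and other genes commonly listed as having TOP messenger RNAs, the median deviation was -0.37, 0.32 and 0.49 in Notch1f/f, -0.07, -0.17 and 0.05 in DNMAML and 0.09, -0.35 and 0.05 in WT replicates. In the start-site scan, 5 of the 9 of these genes that were matched held the pyrimidine run (55.6%, against 43.9% of all starts). Elongation factor Eef1a1 had 1482, 3238 and 4175 CPM in Notch1f/f, 2281, 2080 and 2698 CPM in DNMAML and 2932, 2291 and 3128 CPM in WT libraries. All 14 were above 0 in Notch1f/f against WT (51.7% of all genes), with a median of 0.22, and 0 of 14 passed in any comparison in edgeR. In Notch1f/f against WT, 2 of them (Hnrnpa1 and Pabpc1) had an unadjusted p below 0.05, against 13.4% of all genes. The 8 tested noncoding hosts of small nucleolar RNAs, such as Gas5, had median deviations of -0.29, 0.40 and 0.25 in the Notch1f/f replicates, and 0 passed.

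Assembly factors and mitochondrial ribosomal protein genes had smaller median deviations. The median deviation of 45 ribosome biogenesis genes was -0.11, 0.24 and 0.05 in Notch1f/f, -0.01, 0.02 and 0.06 in DNMAML and -0.05, -0.17 and 0.07 in WT replicates. For 77 tested mitochondrial ribosomal protein genes it was -0.09, -0.04 and 0.18 in the Notch1f/f replicates, and for 14 genes of RNA polymerase I, which transcribes ribosomal RNA, it was 0.02, 0.15 and 0.07. In Notch1f/f against WT, 0 of 77 mitochondrial ribosomal protein genes, 0 of 14 polymerase I genes, 0 of 22 mTORC1 and TOP regulators and 0 of 9 Myc network genes passed in edgeR, where 0.836% of all genes did. At an unadjusted p below 0.05 there were 2, 4, 5 and 3 of them, against 13.4% of all genes. That share was exceeded by the polymerase I, mTORC1 and Myc lists and not reached by the mitochondrial list. The Myc gene itself had 4.83, 53.5 and 29.7 CPM in Notch1f/f, 9.78, 9.49 and 8.55 CPM in DNMAML and 7.28, 2.18 and 7.80 CPM in WT libraries, a log2 difference of 2.34 (SE 0.79) between Notch1f/f and WT that did not pass (adjusted p = 0.237).

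Of the 45 biogenesis genes, 1 passed, as lower in Notch1f/f than in WT (edgeR, 0.323% of all genes passed as lower). Sbds, which helps release the assembly factor Eif6 from the new large subunit, fell to 113, 100.3 and 135 CPM in Notch1f/f, against 194, 183 and 194 CPM in WT libraries, with 151, 126 and 165 CPM in DNMAML. The log2 difference was -0.71 (SE 0.14, edgeR adjusted p = 0.0418). The call was kept in 10 of 19 fits (adjusted p from 4.74e-04 to 0.161) and was lost without any of the 3 WT libraries, without DNMAML replicate 1 or 3 or without Notch1f/f replicate 2, with limma-voom and in both fits of the 6 Notch1f/f and WT libraries alone, with differences of -0.84 to -0.61 throughout.

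**Figure D5:**
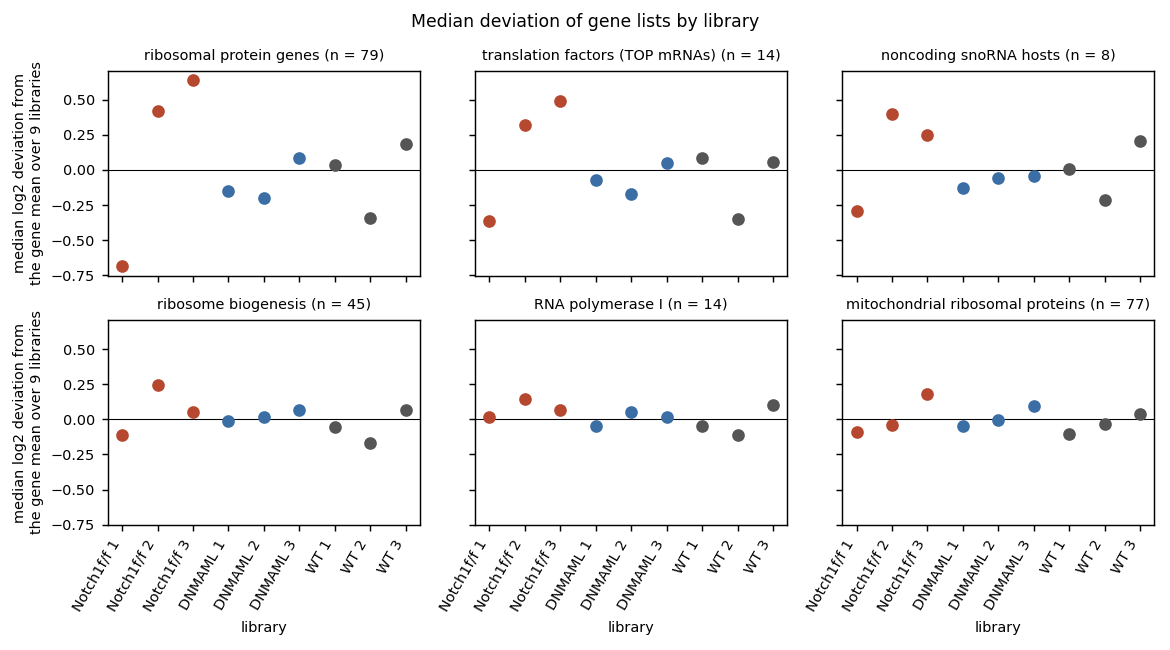
Median log2 deviation from the gene mean over 9 libraries (y axis) for 6 gene lists (panels) in each library (x axis). The ribosomal protein genes span -0.69 to 0.64 over the Notch1f/f libraries, the translation factors listed as having TOP messenger RNAs -0.37 to 0.49, and the mitochondrial ribosomal protein genes -0.09 to 0.18.

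Some other features were lowest in the same library of each genotype as most members, and others were not. Fos, induced within minutes by tissue handling, had 495, 1307 and 1259 CPM in Notch1f/f, 1541, 345 and 1329 CPM in DNMAML and 2006, 319 and 1230 CPM in WT libraries, so its lowest library in each genotype was the one lowest for most members. The summed level of 10 immediate early genes was 3806, 6869 and 7406 CPM in Notch1f/f, 9073, 2845 and 8456 CPM in DNMAML and 12157, 3795 and 8977 CPM in WT libraries. The 12 lung epithelial markers, none of them at 0, summed to 187, 594 and 1263 CPM in Notch1f/f, 1707, 264 and 1806 CPM in DNMAML and 1598, 475 and 3456 CPM in WT libraries. Notch1f/f replicate 1 was also the Notch1f/f library with the Y-linked gene Ddx3y (133 CPM, against 0 and 0.225 CPM in replicates 2 and 3), which was otherwise present in DNMAML replicates 1 and 3 (106.8 and 115 CPM) and WT replicate 2 (107.2 CPM). Mki67, mural, leukocyte and platelet and red cell values were not lowest in these libraries in every genotype. The proliferation gene Mki67 had 29.1, 138 and 184 CPM in Notch1f/f, 122, 146 and 103 CPM in DNMAML and 5.51, 7.18 and 5.96 CPM in WT libraries. The 10 mural markers summed to 119, 150 and 235 CPM in Notch1f/f, 556, 264 and 504 CPM in DNMAML and 677, 586 and 437 CPM in WT libraries. Of these markers, 4 passed as lower in Notch1f/f against WT (edgeR, 0.323% of all genes). All 15 cell cycle genes were above 0 against WT in both mutant genotypes, with median log2 differences of 3.25 in Notch1f/f and 3.59 in DNMAML. In each, 14 genes had an unadjusted p below 0.05 (edgeR), against 13.4% of all genes in Notch1f/f and 5.97% in DNMAML. Of the 15, 9 passed as higher in Notch1f/f (edgeR, 0.513% of all genes) and 1 in DNMAML (0.00513%). Between Notch1f/f and DNMAML their median was -0.06 and 0 passed, with 0 at an unadjusted p below 0.05. The 14 leukocyte markers summed to 145 to 350 CPM in Notch1f/f, 382 to 690.1 CPM in DNMAML and 122 to 830.2 CPM in WT libraries. Up to 4 of them were at 0 in a library. Lyz2 alone made up the larger part of this sum in every library, so the sum does not rank the libraries by leukocyte content. WT replicate 3 had the highest sum, with Lyz2 at 812 CPM. Ptprc, which encodes CD45, was lowest in that same library (0.408 CPM) and highest in DNMAML replicate 1 (27.95 CPM). The 10 fibroblast markers summed to 146, 174 and 462 CPM in Notch1f/f libraries. Their sums were 1163, 265 and 576 CPM in DNMAML and 935, 296 and 419 CPM in WT libraries. Like Fos and the epithelial sum, the fibroblast sum was lowest in the library of each genotype that was lowest for most members. The 9 platelet and red cell markers summed to 143 to 357, 142 to 1065 and 183 to 514 CPM in Notch1f/f, DNMAML and WT libraries. The part of these features in the level of the ribosomal protein genes was not tested. In such bulk samples fewer cells of a type and less RNA per cell cannot be told apart.

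Transcript length also moved with the libraries. Among protein-coding genes of at least 10 CPM outside the lists, the 88 with at most 1000 exon bases had median deviations of -0.35, 0.07 and 0.39 in the Notch1f/f replicates, 0.00, -0.06 and 0.14 in DNMAML and -0.04, -0.20 and 0.14 in WT replicates. The 2033 with more than 8000 exon bases had 0.08, -0.02 and -0.06 in Notch1f/f, -0.04, 0.06 and 0.03 in DNMAML and -0.01, 0.01 and -0.02 in WT replicates. Most members have exon lengths between these classes. In the Notch1f/f replicates the 604 genes with over 1000 and up to 2000 bases had -0.25, -0.03 and 0.24. The 2356 with over 2000 and up to 4000 bases had -0.12, -0.05 and 0.11. Short genes thus shared the low level of Notch1f/f replicate 1 and the high level of Notch1f/f replicate 3, with smaller differences than the ribosomal protein genes. In Notch1f/f replicate 2, where the median member stood at 0.42, these length classes stood at -0.05 to 0.07. The part of length in the result was not tested.

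The counts of these genes carry limits of their own. Ribosomal protein genes have many processed pseudogenes, and 300 genes with a pseudogene suffix matching the name pattern summed to 291, 682 and 739 CPM in Notch1f/f, 406, 411 and 575 CPM in DNMAML and 493, 384 and 568 CPM in WT libraries, 3.32% to 4.04% of the members' sum in each library. Among 78 members with a coding transcript in the annotation at hand, a median of 41.0% of 50-base words of the transcript also occurred in another gene, reaching 86.7% in Rps18. The share was 85.6% in Rpl3, 29.7% in Rpl30 and 13.7% in Rps27l. In addition, 36 members share exon bases with another annotated gene, 14 of them with a protein-coding one, and 29 members hold 52 small nucleolar RNA genes within their bounds. The recorded counting command set neither strand nor multiple mapping, so reads in shared bases, and reads that fit a member and a copy equally well, cannot be assigned.

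Members close to the level minimum were few. Just inside it were Rpl22l1 (10.1 CPM), Rpl13a (10.8 CPM) and Rps27l (21.6 CPM), and just outside were Rps3a2 (4.58 CPM), Rpl6l (4.40 CPM) and Rps10 (2.56 CPM). Rpl24, a bridge protein of the large subunit, was also left out at 0.740 CPM. Of their exon bases, 47.0% in Rpl24, 20.6% in Rps10 and 29.4% in Rpl13a are shared on the same strand with the genes Gm28037, RPS10-NUDT3 and Gm45713, in that order, which had 0 counts in every library. The levels of these 3 genes are therefore uncertain. The other candidates left out, Rps12l1, Rpl10l, Rpl39l, Rpl3l, Rpl32l and Rps3a3, had at most 1.69 CPM.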

How the data were processed

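RNA was measured in 9 libraries of sorted lung endothelial cells, 3 per genotype. The authors deposited raw read counts per gene, made with featureCounts 2.0.1 on GRCm39 with Ensembl release 107, per the file headers; the recorded command sets no option for strand, read pairs or multiple mapping. The submitters' processing notes name STAR 2.7 and the build mm10, which differs from the header. Gene coordinates are those of the deposited count table.

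From the counts, CPM were computed as count over TMM-scaled library total, and deviations as log2(CPM + 1) minus the gene's mean over the 9 libraries. All 19486 genes kept by edgeR's filter on low counts were tested with edgeR 4.0.16 (robust quasi-likelihood test, genotype as the only term, all 9 libraries, two-sided, Benjamini-Hochberg adjustment over all genes, threshold 0.05) in R 4.3.3. DESeq2 1.42.0, limma-voom (limma 3.58.1), other scalings, no filter, the replicate number as a block, and each library left out in turn were alternatives.

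Members named in the text were those with the 5 highest and 5 lowest differences in each comparison, the 4 highest and 4 lowest per kilobase, copies of other members, the stalk genes and Rpsa, members overlapping other genes and those nearest the level minimum, of which a part is given; other lists gave up to 3 genes of smallest p, and further genes (Fau, Rack1, Eef1a1, Fos, Ddx3y, Mki67, Rps27) were chosen after their values were seen. Members and lists were chosen with earlier results of these data known. Same-numbered libraries of DNMAML and WT deviated together (correlations 0.383, 0.431 and 0.214), against -0.365 to 0.0648 for those of different number. Those of Notch1f/f did not all deviate together with WT (-0.185, -0.0485 and 0.230) or with DNMAML (-0.152, 0.117 and 0.270). Libraries of different number could correlate as strongly, as WT replicate 2 did with Notch1f/f replicate 1 (0.436). The labels give the number no meaning, so these correlations do not establish pairs, and the replicate block was an alternative only.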

Additional observations from a re-analysis of the deposited data

How the results depend on the processing

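The median difference of the members kept its sign in Notch1f/f against DNMAML with each library left out (0.03 to 0.61), and did not in Notch1f/f against WT (-0.01 to 0.56) or DNMAML against WT (-0.18 to 0.05). Leaving out a library moved the mean summed level to 13178 to 19700 CPM in Notch1f/f, 11922 to 13226 CPM in DNMAML and 12385 to 14706 CPM in WT. In Notch1f/f against WT, the number of members called was 0 to 11 as higher and 0 to 1 as lower over these fits. Without the filter on low counts it was 6 as higher and 2 as lower, and with DESeq2 it was 1 as higher and 2 as lower. In Notch1f/f against DNMAML, 2 members (Rpl3 and Rps28) were called as higher and 1 (Rpl30) as lower without the filter. The cause was not tested. With the replicate block, fitted to the 6 libraries of DNMAML and WT, 0 members were called, the median was -0.05 and the smallest adjusted p was 0.0543 (edgeR); 21 of 79 members had an unadjusted p below 0.05, against 13.2% of all genes. The block over 9 libraries called 0 members in each comparison, with medians of 0.22, -0.06 and 0.25 for Notch1f/f against WT, DNMAML against WT and Notch1f/f against DNMAML. Over 18 alternatives, 24 of 2700 values of named members newly passed the threshold and 130 changed sign. The main edgeR fit, with the filter on low counts and 9 libraries, called no named member. It thus had no call that an alternative could lose or reverse. Each genotype had 3 libraries, and the summed level of the Notch1f/f libraries spanned 2.58-fold, which limits these comparisons; members had 168476 to 408631 counts per library.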
